A study of Mus musculus with 48 samples.

Results

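The data describe 8 genes of the NRF2 antioxidant pathway in mouse liver: Nfe2l2, which encodes NRF2, its inhibitor gene Keap1, and 6 genes widely used as readouts of NRF2 (Nqo1, Gclc, Gclm, Txnrd1, Srxn1 and Hmox1). They were chosen by symbol among the 49315 genes of the deposited table, and all 8 were found and tested. Liver poly(A) RNA came from 48 C57BL/6J mice in 8 groups of 6 that cross sex, diet and exposure. Each sex was fed a high-fat diet (HFD) or a low-fat diet (LFD) and was given, every week, either a mixture of dioxin-like compounds or vehicle, and livers were taken after 12 weeks. Each weekly dose of the mixture contained 10 ng/kg of TCDD, 80 ng/kg of PeCDF and 140 ng/kg of PCB126. The groups are therefore mixture HFD, vehicle HFD, mixture LFD and vehicle LFD males, and the same 4 of females.

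NRF2 is a transcription factor whose amount is set mainly by how fast the protein is degraded. KEAP1 holds NRF2 for ubiquitination by a CUL3 ligase, and oxidants or electrophiles that modify KEAP1 let NRF2 accumulate. NRF2 then pairs with a small MAF protein and binds the antioxidant response element (ARE) near genes for glutathione synthesis, thiol reduction, quinone detoxification and heme breakdown. The aryl hydrocarbon receptor (AhR), which dioxins activate, is known to act on some of the same genes, Nqo1 among them, so the mixture and the diet are each a question to ask of these genes.

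On build GRCm38, Nfe2l2 lies on chromosome 2 at 75675513 to 75704641 (minus strand), and Srxn1 on the same chromosome at 152105516 to 152111376 (plus). Keap1 (21229730 to 21239361, minus) and Gclc (77754535 to 77794485, plus) lie on chromosome 9, and Nqo1 (107388225 to 107403206, minus) and Hmox1 (75093621 to 75100589, plus) on chromosome 8. Gclm lies on chromosome 3 at 122245557 to 122270732 (plus) and Txnrd1 on chromosome 10 at 82833951 to 82897712 (plus). All 8 are annotated as protein-coding.

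The RefSeq windows of 250 bases before the transcription start show where the letters of the ARE occur close to the start of these members. Windows existed for 6 of the 8 genes, 8 windows in all, on build GRCm38.p6, with none for Gclc and Hmox1. They are shown for Srxn1 and Nqo1, the genes with the largest diet differences, and for Gclm and 1 of 3 Txnrd1 windows, the one with a match, picked after the matches were seen. Sequences run 5′ to 3′ on the gene's strand, and capitals mark the ARE core TGACNNNGC or its second form TGAGNNNGC, searched on both strands.
Srxn1, chr2:152105274-152105523, plus strand: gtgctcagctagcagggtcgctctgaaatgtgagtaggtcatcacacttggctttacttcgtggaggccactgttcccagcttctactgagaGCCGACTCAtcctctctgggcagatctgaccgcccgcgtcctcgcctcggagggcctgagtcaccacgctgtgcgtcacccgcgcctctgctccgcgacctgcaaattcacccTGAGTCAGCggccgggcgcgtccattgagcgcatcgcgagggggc
Nqo1, chr8:107403206-107403455, minus strand: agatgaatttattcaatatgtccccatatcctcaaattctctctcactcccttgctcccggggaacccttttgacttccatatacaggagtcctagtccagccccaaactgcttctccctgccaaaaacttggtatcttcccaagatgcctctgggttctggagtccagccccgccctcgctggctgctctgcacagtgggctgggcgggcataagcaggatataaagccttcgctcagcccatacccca
Gclm, chr3:122245307-122245556, plus strand: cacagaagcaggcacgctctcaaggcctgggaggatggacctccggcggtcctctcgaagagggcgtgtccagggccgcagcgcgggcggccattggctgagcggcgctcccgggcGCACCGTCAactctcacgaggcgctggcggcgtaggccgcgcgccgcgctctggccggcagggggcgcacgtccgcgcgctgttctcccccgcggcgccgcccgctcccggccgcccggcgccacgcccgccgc
Txnrd1, chr10:82858956-82859205, plus strand: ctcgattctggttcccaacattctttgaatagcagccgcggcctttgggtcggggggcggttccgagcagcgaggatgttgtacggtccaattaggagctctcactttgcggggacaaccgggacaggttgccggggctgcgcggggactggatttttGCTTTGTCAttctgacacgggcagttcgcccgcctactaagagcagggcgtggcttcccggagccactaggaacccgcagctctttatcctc

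The Srxn1 window held 2 matches to the second form, TGAGTCAGC 45 bases before the start and GCCGACTCA, its reverse-strand match, 158 bases before it. The Gclm window held GCACCGTCA 134 bases before the start, and the Txnrd1 window GCTTTGTCA 92 bases before it, both reverse-strand matches to TGACNNNGC. The Nfe2l2 window, not printed, held TGACTCCGC 240 bases before the start. The Nqo1 and Keap1 windows and the other 2 of Txnrd1 held neither form. Of 32851 mouse windows of this length, 10.2% held TGACNNNGC and 14.4% the second form, which was added after the sequences were seen. A match is a string of letters and not a measured binding site.

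Values are TPM, a level per transcript length that is scaled to 1000000 in each library. Depth is not kept by TPM and is unknown, so no detection limit can be given. The lowest value of any member in any library was 4.36 TPM, for Nqo1 in a vehicle LFD male, and the highest was 315 TPM, for Gclc in a mixture HFD male. Hepatocyte transcripts marked all libraries (Alb, the albumin gene, was at 38082 TPM or more). Skeletal muscle transcripts, summed over 15 genes, reached 25363 TPM in mixture HFD male 6, 9555 TPM in vehicle LFD female 3 and 1998 TPM in mixture LFD female 3. The medians by group were 26.2 to 74.6 TPM. Results of the members that change without these 3 libraries are named. Adrenal cortex transcripts, summed over 6 genes, reached 1836 TPM in a mixture LFD female (group median 11.3) and 107 TPM in a mixture LFD male (7.30). No fit left out libraries for adrenal transcripts. On HFD, in the mean over the 4 strata, 35.0% of all genes tested were higher and 15.5% lower (limma, adjusted p under 0.05). By the same measure all 5 hepatocyte markers tested fell (median log2 change -0.57). Of Kupffer cell and macrophage markers 7 of 10 rose, and of stellate cell markers 5 of 6. The part of these shifts in the results was not tested, and in bulk tissue fewer cells of a type cannot be told apart from less RNA per cell.

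**Figure D1:**
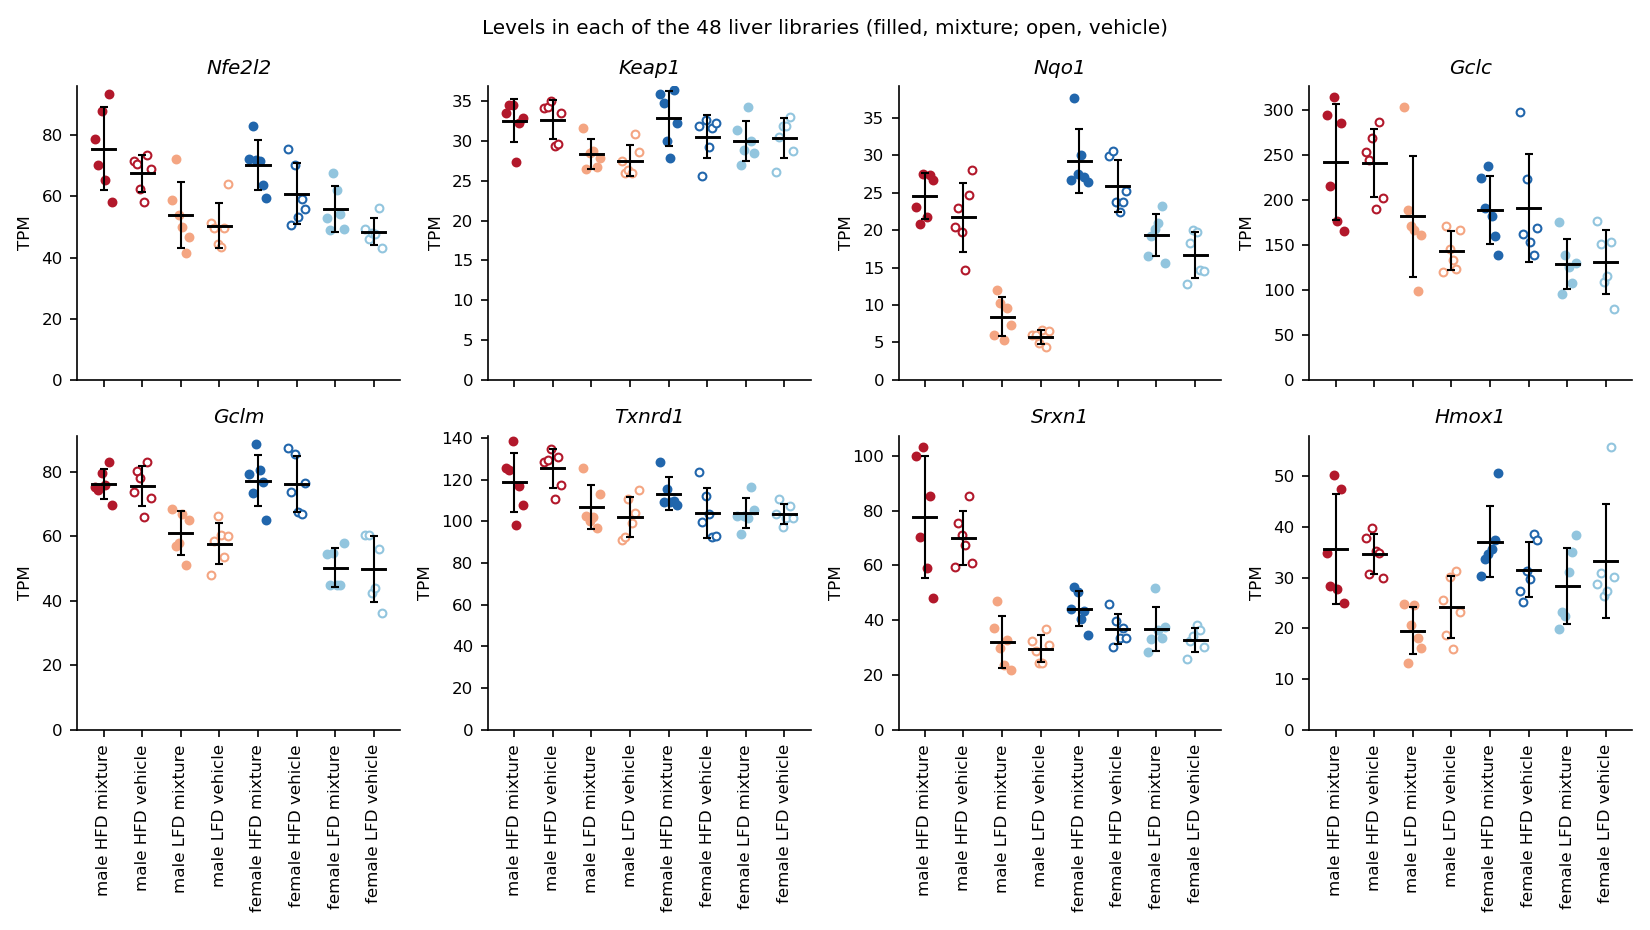
TPM of each gene in the 48 livers, with 6 libraries per group as points (filled for mixture, open for vehicle) and the mean ± SD in black. Nqo1 in LFD males lies below every other group, and Srxn1 in HFD males has means of 77.7 and 69.9 TPM, above the 6 other groups.

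The mixture left the 8 genes without a called change in every stratum. It did raise some AhR targets. Cyp1a1 averaged 139 ± 51.9 TPM in mixture LFD males and 1.73 ± 0.347 TPM in vehicle LFD males (SD, n = 6 each). On HFD it averaged 4.66 ± 2.47 TPM in mixture males and 0.846 ± 0.260 TPM in vehicle males (SD, n = 6 each). Averaged over the 4 strata of sex and diet, Cyp1a1 rose by a log2 change of 3.31, Cyp1a2 by 2.51 and Htatip2 by 0.57. These were the 3 called of 5 AhR response genes looked at, and Cyp1b1 and Tiparp were not called. In HFD males and in HFD females 2 of the 5 were called. Among all 15820 genes tested with limma, 0.0379% were called in LFD males and again in LFD females, 0.0948% in HFD males, 0.0126% in HFD females and 0.0948% in the mean of the 4. A call means a Benjamini-Hochberg adjusted p under 0.05, and with so few genes called anywhere a count of 0 of 8 members is near the background. Unadjusted p-values were under 0.05 for 1 member in LFD males, 2 in the mean of the 4 and 0 in each of the other 3 strata. Of the 15820 genes, 830 had such a p-value in LFD males and 1850 in the mean of the 4. The counts were 1503 in LFD females, 1486 in HFD males and 670 in HFD females (limma).

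Nqo1, the quinone reductase, came nearest to a call. It was at 5.28 to 12.1 TPM in mixture LFD males (median 8.46) and 4.36 to 6.60 TPM in vehicle LFD males (median 5.97), so the ranges overlapped, with 5 of the 6 mixture males above the vehicle mean. The log2 change was 0.45 (SE 0.14, adjusted p = 0.604, limma). The changes were 0.19 in HFD males, 0.21 in LFD females and 0.17 in HFD females, all positive, and their mean with LFD males was 0.25 (95% interval 0.11 to 0.40, adjusted p = 0.158, limma). Nfe2l2 was next, with a mean change of 0.16 (interval 0.05 to 0.28, adjusted p = 0.273, limma) and positive values in all 4 strata, from 0.08 in LFD males to 0.21 in HFD females.

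The other members moved less. Mean changes with the mixture were 0.15 for Srxn1 (interval -0.01 to 0.31), 0.07 for Gclc (-0.14 to 0.27), 0.04 for Gclm (-0.06 to 0.14), 0.03 for Keap1 (-0.04 to 0.10), 0.03 for Txnrd1 (-0.05 to 0.10) and -0.07 for Hmox1 (-0.26 to 0.11). The intervals of Keap1 and Txnrd1 were the narrowest, and those of Gclc and Hmox1, the most variable members, the widest. Their median coefficients of variation within a group were 24.2% and 24.5%, against 8.32% for Keap1 and 8.45% for Txnrd1. The difference of the mixture change between HFD and LFD was called for 0 members in males, in females and in their mean. Of all genes 0.00632% were called in each, and 0.0765% in males without the 3 muscle-rich libraries. The difference between males and females was called for 0 members, where 0% of all genes were called and 735 had an unadjusted p under 0.05. The mixture difference for Hmox1 (0.36 higher on HFD, mean of sexes, interval -0.01 to 0.73, adjusted p = 0.662, limma) was the largest in size.

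Diet, not the mixture, was where these genes were called. Averaged over the 4 strata, all 8 members were higher on HFD, while 50.5% of all genes were called and 35.0% of all genes were called as higher, and the median of all genes was 0.06 on the log2 scale. Nqo1 rose by 1.10, Srxn1 by 0.72, Gclc by 0.57, Gclm by 0.48, Hmox1 by 0.43, Nfe2l2 by 0.39, Keap1 by 0.14 and Txnrd1 by 0.14 (limma, adjusted p between 5.02e-17 and 0.00126). By stratum, 6 of 8 members rose in mixture males, 8 in vehicle males, 4 in mixture females and 4 in vehicle females, where 31.7%, 25.6%, 11.5% and 14.4% of all genes were called as higher. The 4 in females were Nfe2l2, Nqo1, Gclc and Gclm in both exposures. Library names number the mice of each diet on their own, and no source used here says that the diets ran side by side, so diet and cohort cannot be told apart.

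The scaling matters for the smaller of these changes. A trimmed-mean (TMM) scaling shifted the median log2 change of all genes by -0.187 in the HFD to LFD comparison of mixture males, by -0.129 in vehicle males and by -0.085 in the mean of the 4, and by -0.016 and -0.010 in mixture and vehicle females. With it, 6 of 8 members were called in the mean: Keap1 had 0.04 (adjusted p = 0.262, limma) and Txnrd1 0.04 (adjusted p = 0.301), while Nqo1 stood at 1.01, Srxn1 at 0.62, Gclc at 0.47, Gclm at 0.39, Hmox1 at 0.33 and Nfe2l2 at 0.29. It also moved the split of all genes called on HFD, 5532 higher and 2457 lower as deposited, to 3800 higher and 4070 lower. In mixture males the split was 5010 higher and 1095 lower as deposited, and 2308 higher and 2723 lower after scaling.

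Nfe2l2, the gene of the factor itself, was at 58.1 to 93.5 TPM in mixture HFD males (median 74.5) and 41.5 to 72.4 TPM in mixture LFD males (median 52.0). In vehicle males it was at 58.1 to 73.5 TPM on HFD (median 69.9) and 43.6 to 64.1 TPM on LFD (median 49.6). In females it was at 59.6 to 83.1 TPM in mixture HFD mice (median 71.9), 49.1 to 67.8 TPM in mixture LFD mice (median 53.6), 50.7 to 75.6 TPM in vehicle HFD mice (median 57.5) and 43.1 to 56.4 TPM in vehicle LFD mice (median 47.9). The HFD ranges overlapped the LFD ranges in all 4 strata, although each HFD library exceeded the LFD mean of its stratum. The log2 changes were 0.48, 0.42, 0.33 and 0.31 in mixture males, vehicle males, mixture females and vehicle females, and each was called (adjusted p between 0.00073 and 0.0372, limma). With no filter on low values the 2 female calls were lost (adjusted p = 0.0746 and 0.0735). Keap1 was flatter, with group means of 27.5 to 32.9 TPM. It rose by 0.19 in mixture males and by 0.24 in vehicle males, and had 0.12 in mixture females and 0.01 in vehicle females, which were not called. With TMM scaling Keap1 was at -0.019 in mixture males and 0.09 in vehicle males, neither called.

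Nqo1, which reduces quinones, showed the largest diet difference. It was at 20.9 to 27.5 TPM in mixture HFD males (median 24.9) and 5.28 to 12.1 TPM in mixture LFD males (median 8.46). In vehicle males it was at 14.6 to 28.02 TPM on HFD (median 21.6) and 4.36 to 6.60 TPM on LFD (median 5.97). All HFD males exceeded all LFD males. In females it was at 26.5 to 37.6 TPM in mixture HFD mice (median 27.3), 15.7 to 23.2 TPM in mixture LFD mice (median 19.7), 22.3 to 30.6 TPM in vehicle HFD mice (median 24.5) and 12.8 to 20.0 TPM in vehicle LFD mice (median 16.5), again with no overlap within a stratum. Folds are given for TPM + 1, which understates the change at low TPM. The changes were 1.48 in mixture males (2.79-fold, SE 0.14) and 1.75 in vehicle males (3.35-fold, SE 0.14). They were 0.58 in mixture females and 0.62 in vehicle females (1.49-fold and 1.53-fold). All 4 were called (adjusted p between 7.62e-13 and 0.00288, limma), and no overlap was seen in any stratum, as held for 12.9%, 13.4%, 5.91% and 6.11% of all genes as higher in mixture males, vehicle males, mixture females and vehicle females.

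Gclc and Gclm encode the catalytic and the modifier subunit of glutamate-cysteine ligase, the rate-limiting enzyme of glutathione synthesis. Gclm was at 65.0 to 88.5 TPM in mixture HFD females (median 78.0) and 44.7 to 57.9 TPM in mixture LFD females (median 49.6). In vehicle females it was at 66.9 to 87.2 TPM on HFD (median 75.0) and 36.3 to 60.3 TPM on LFD (median 50.02), and in both cases the diets did not overlap. Gclm rose by 0.61 in mixture females and 0.62 in vehicle females (SE 0.10 each). In males it rose by 0.32 in mixture mice, where the diets did not overlap (69.5 to 83.1 TPM on HFD, 51.2 to 68.5 TPM on LFD), and by 0.38 in vehicle mice, where they overlapped narrowly (65.9 to 82.9 TPM on HFD, 47.96 to 66.2 TPM on LFD). With TMM scaling neither male change was called (0.11 and 0.24, adjusted p = 0.411 and 0.0584). Reads of Gm17494 and the pseudogene Gm6061, which lie within or across Gclm, could be mixed with it, since the strand setting is not given. The same holds for Gm16754 at Keap1 and for Eid3, Gm38560 and Gm47073 at Txnrd1.

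Gclc was the most variable of the pair. In vehicle males it was at 190.5 to 287 TPM on HFD (median 249) and 121 to 171 TPM on LFD (median 139.7), without overlap, and rose by 0.74. In mixture males it was at 165 to 315 TPM on HFD and 99.3 to 304 TPM on LFD, with 4 of 6 HFD livers above the LFD mean, and the change of 0.44 was not called (adjusted p = 0.0783, limma). Without the 3 muscle-rich libraries it was called (0.54, adjusted p = 0.0375, limma). In females it rose by 0.55 in mixture mice and 0.54 in vehicle mice, with adjusted p = 0.0471 and 0.0405 (limma). The call in vehicle females was lost without the 3 muscle-rich libraries (0.50, adjusted p = 0.0737, limma) and in a fit of those groups alone (adjusted p = 0.0773). Both female calls were lost with no filter (adjusted p = 0.0977 in mixture and 0.0873 in vehicle mice) and without 5 libraries with muscle transcripts (0.58, adjusted p = 0.0529 and 0.50, adjusted p = 0.0797).

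Txnrd1, the cytosolic thioredoxin reductase, had with Keap1 the smallest mean diet change of the 8. It was at 111 to 135 TPM in vehicle HFD males (median 129) and 90.8 to 115 TPM in vehicle LFD males (median 102), and rose by 0.30 (SE 0.07, adjusted p = 0.00166, limma). The changes of 0.15 in mixture males, 0.12 in mixture females and -0.0020 in vehicle females were not called, and under TMM scaling the male values became -0.07 in mixture mice and 0.15 in vehicle mice (adjusted p = 0.108). Srxn1, the sulfiredoxin that repairs overoxidised peroxiredoxins, was at 47.97 to 103 TPM in mixture HFD males (median 77.8) and 21.7 to 47.2 TPM in mixture LFD males (median 31.4), without overlap. In vehicle males it was at 59.3 to 85.5 TPM on HFD (median 69.4) and 24.2 to 37.0 TPM on LFD (median 29.8), also without overlap. It rose by 1.25 in mixture males and 1.22 in vehicle males (2.37-fold and 2.33-fold for TPM + 1, SE 0.16). In females it had 0.27 in mixture mice and 0.15 in vehicle mice, not called. Its means were 44.2 ± 6.43 TPM in mixture HFD females and 36.8 ± 7.93 TPM in mixture LFD females (SD, n = 6 each). In vehicle females they were 36.7 ± 5.51 TPM on HFD and 32.8 ± 4.45 TPM on LFD (SD, n = 6 each). Without the 3 muscle-rich libraries the mean change of Srxn1 in females was called (0.27, adjusted p = 0.0452, limma).

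Hmox1, the inducible heme oxygenase that breaks heme to biliverdin, rose on HFD in both groups of males, where macrophage markers were higher too. It was at 24.9 to 50.3 TPM in mixture HFD males (median 31.6) and 13.1 to 24.7 TPM in mixture LFD males (median 19.4), just without overlap, and rose by 0.82 (SE 0.18). In vehicle males it was at 29.8 to 39.8 TPM on HFD (median 35.0) and 15.97 to 31.3 TPM on LFD (median 24.4), and rose by 0.53, a call lost under TMM scaling (0.39, adjusted p = 0.105, limma). In females the change was 0.40 in mixture mice and -0.04 in vehicle mice, neither called. The 10 Kupffer cell and macrophage markers summed to a median of 615 TPM in mixture HFD males and 402 TPM in mixture LFD males, 605 TPM in vehicle HFD males and 401 TPM in vehicle LFD males, 851 TPM in mixture HFD females and 755 TPM in mixture LFD females, and 693 TPM in vehicle HFD females and 777 TPM in vehicle LFD females. Over the 48 libraries, deviations of Hmox1 from its group means followed those of this sum, with Pearson's r = 0.83 and Spearman's rho = 0.80 (permutation within groups, p = 1e-05, the smallest 100000 permutations can give, adjusted p = 8e-05 over the 8 members). It was 0.80 without the 2 libraries farthest in the sum, mixture HFD female 6 at 1718 TPM and vehicle LFD female 5 at 1441 TPM. In the other 7 members the adjusted p was 0.0819 or more. No diet call of Hmox1 was lost without those 2 libraries. Both are female, so leaving them out could not change the male means and cannot test the calls in males. The part of macrophage content in the Hmox1 results was not tested.

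**Figure D2:**
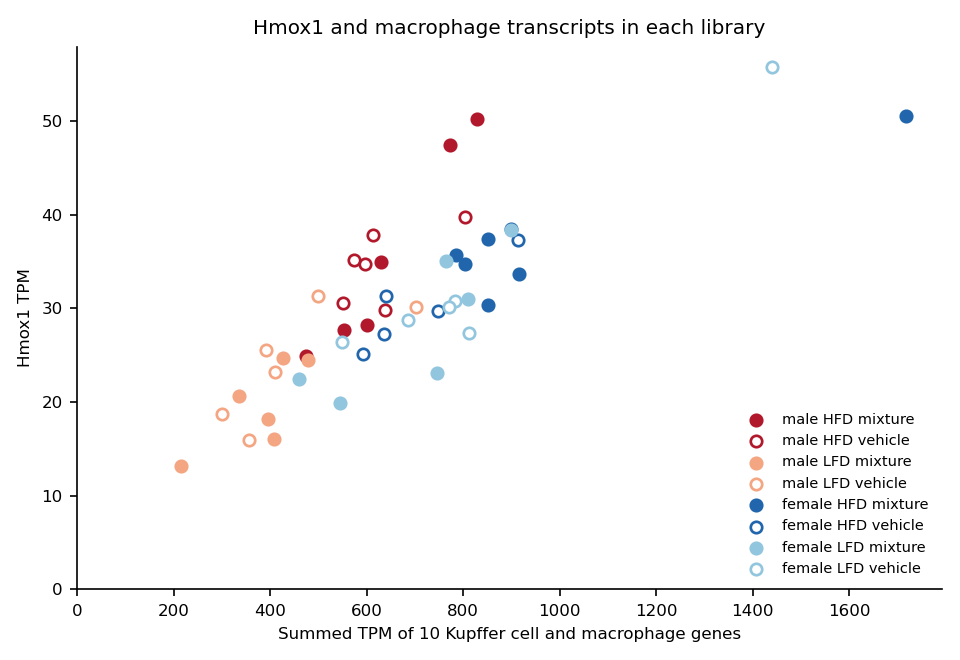
Hmox1 TPM against the summed TPM of 10 Kupffer cell and macrophage genes in each of the 48 livers, coloured by sex and diet (filled for mixture, open for vehicle). Within groups Hmox1 followed the sum (Pearson's r = 0.83 for deviations from group means). Between groups the order was not always the same. Vehicle HFD males averaged 34.7 TPM of Hmox1 at a median sum of 605 TPM, and mixture LFD females 28.3 TPM at 755 TPM. The 2 libraries at 1718 and 1441 TPM hold 50.5 and 55.8 TPM of Hmox1.

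**Figure D3:**
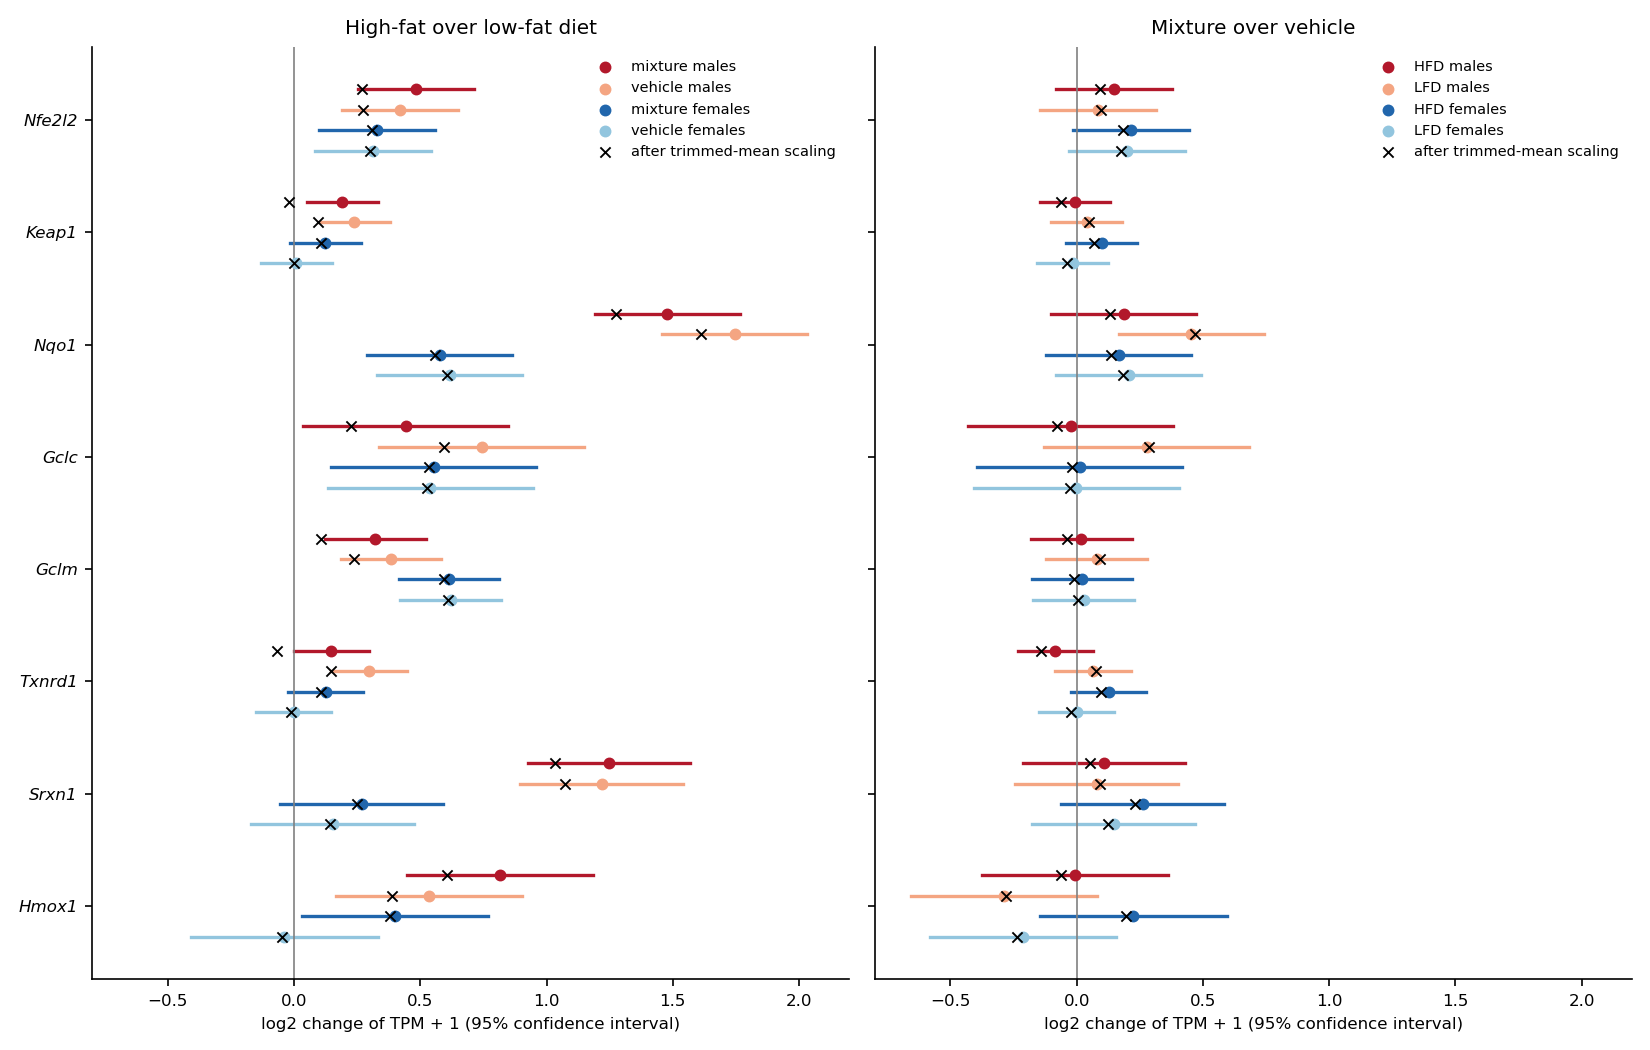
Log2 change of TPM + 1 with its 95% confidence interval for each gene and stratum, for HFD over LFD (left) and mixture over vehicle (right), with crosses for the value after trimmed-mean scaling. The diet changes of Nqo1 and Srxn1 in males lie at 1.22 to 1.75, and the mixture changes lie between -0.29 and 0.45.

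The diet changes differed between the sexes for several members, and the difference itself was tested. Averaged over exposures, the male change exceeded the female change by 1.02 for Nqo1 (SE 0.14, adjusted p = 4.58e-07, limma) and by 1.02 for Srxn1 (SE 0.16, adjusted p = 3.05e-06), and by 0.49 for Hmox1 (adjusted p = 0.033), while Gclm rose less in males (-0.26, adjusted p = 0.0353). Thus 4 of 8 members differed, where 33.2% of all genes did. In mixture mice 2 members differed (17.0% of genes) and in vehicle mice 3 (18.2%), with Nqo1 and Srxn1 in both and Txnrd1 in vehicle mice alone (0.30, adjusted p = 0.04, limma). TMM scaling shifted the median of all genes by -0.145 in the mean difference and ended the Hmox1 call (0.33, adjusted p = 0.174), while Gclm stood at -0.43, Nqo1 at 0.86 and Srxn1 at 0.86. It also ended the Txnrd1 call (0.16, adjusted p = 0.288). The Txnrd1 call was also lost without the 2 libraries richest in macrophage transcripts (0.29, adjusted p = 0.0623, limma), without 5 libraries with muscle transcripts (0.32, adjusted p = 0.054) and with no filter (adjusted p = 0.0777). Without the 3 muscle-rich libraries the Gclm difference was -0.24 (adjusted p = 0.0637), and with no filter the adjusted p was 0.0711 for Gclm and 0.0710 for Hmox1. Nfe2l2 and Gclc had differences of 0.13 (interval -0.10 to 0.36) and 0.05 (-0.36 to 0.45), which leave a difference of up to that size possible.

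Males and females also differed at a fixed diet. In mixture LFD mice, Nqo1 was lower in males, with a log2 difference of -1.14 (8.43 ± 2.64 TPM in males, 19.3 ± 2.83 TPM in females) and in vehicle LFD mice of -1.39 (5.71 ± 0.892 TPM in males, 16.7 ± 3.07 TPM in females, SD, n = 6 each), without overlap in either. Such separation, with males lower, held for 6.51% of all genes in mixture LFD mice and 6.84% in vehicle LFD mice. On HFD the Nqo1 differences were -0.24 and -0.26, not called. Srxn1 was higher in males on HFD, by 0.76 in mixture mice and 0.91 in vehicle mice, and had -0.22 and -0.15 on LFD, not called. In mixture LFD mice, Gclm was also higher in males (0.28) and Hmox1 lower (-0.51). Both calls were lost with no filter (adjusted p = 0.0757 for Gclm and 0.0875 for Hmox1, limma) and with only the groups compared (0.0536 and 0.0714). TMM scaling ended the Hmox1 call (-0.38, adjusted p = 0.139) and put Gclc past the threshold (0.58, adjusted p = 0.0279). In vehicle HFD mice Txnrd1 was higher in males (0.27). The members called were 3 of 8 in mixture LFD mice, 1 in vehicle LFD mice, 1 in mixture HFD mice and 2 in vehicle HFD mice, where 21.5%, 23.7%, 15.3% and 11.8% of all genes were called. In the mean of the 4, Nqo1 was lower in males (-0.76), and Gclc and Srxn1 higher by 0.33 each (31.2% of all genes called). With TMM scaling, which shifted the median of all genes by 0.112 in mixture LFD mice and by 0.025 in the mean, Gclm (0.15) and Txnrd1 (0.11) were called too.

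The order of the 8 group means put Nqo1 highest in mixture HFD females (29.2 ± 4.29 TPM) and lowest in vehicle LFD males (5.71 ± 0.892 TPM), and its only neighbours in that order without overlap were vehicle LFD females (16.7 TPM) and mixture LFD males (8.43 TPM). For Srxn1 the only such step was between vehicle HFD males (69.9 TPM) and mixture HFD females (44.2 TPM). For the other 6 members all neighbours in the order overlapped. The share of all genes with such steps was not computed. Within groups, 7 of 28 pairs of members varied together across livers, all positively, with r from 0.41 for Keap1 and Txnrd1 to 0.78 for Gclc and Gclm, where rho was 0.77 and r without the 2 farthest libraries was 0.77 (permutation within groups, adjusted p = 9.33e-05 for r and for rho). The others joined Nfe2l2 to Gclc (0.66), Srxn1 (0.70) and Txnrd1 (0.44), and Txnrd1 to Gclc (0.67) and Gclm (0.50). Nqo1 and Hmox1 were in none of these 7 pairs. Under TMM scaling 6 pairs passed, 5 positive and 1 negative, and without the 3 muscle-rich libraries 6. The median r of the 28 pairs was 0.28 as deposited and 0.11 under TMM scaling. The share among other pairs of genes was not computed, so these pairs cannot be called particular to the members. Over all 48 livers the genes most like Nqo1 were Cd36 (Pearson's r = 0.95) and Rtn4 (0.93), and those most like Srxn1 were Anxa5 (0.94) and S100a10 (0.92). For Hmox1 they were Treml4 (0.92) and Lgmn (0.90), for Gclm Chmp3 and Adi1 (0.89 each), and for Gclc Sh3bgrl2 (0.88) and Mapk9 (0.87). For Nfe2l2 they were Ppp2r1b (0.85) and Acot6 (0.84), for Txnrd1 Dcun1d4 (0.84) and Xpot (0.81), and for Keap1 Nod1 (0.74) and Arpin (0.72). These values include the differences between groups and carry no p.

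In 4 of 6 lists of the wider pathway most tested genes rose on HFD, in livers where hepatocyte markers fell and macrophage and stellate markers rose as given above. Over all genes 35.0% were called as higher and 15.5% as lower. Of 19 detoxification targets, 15 rose and 3 (Gstp1, Akr1b8 and Abcc2) fell in the mean of the 4 (median 0.83, against 0.06 over all genes). The glutathione transferases Gsta1 (2.80) and Gsta2 (2.75), whose reads can be split between near-identical copies, rose, as did the epoxide hydrolase Ephx1 (1.50) and the ER nucleotidase Entpd5 (1.07), the 4 with the smallest p. In the glutathione and thioredoxin list, 5 of 7 tested genes rose and 0 fell (median 0.35), among them glutathione synthetase Gss (0.78), Prdx6 (0.51), thioredoxin Txn1 (0.50) and Prdx1 (0.34). Slc7a11, Gpx2 and Ggt1 were under the filter of 1 TPM in 6 libraries. All 10 other antioxidant enzymes rose (median 0.31), such as glutathione peroxidases Gpx1 (0.83) and Gpx4 (0.81), the mitochondrial superoxide dismutase Sod2 (0.40) and Prdx2 (0.35).

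Iron and heme genes followed, with 5 of 7 higher and 0 lower (median 0.49): the ferritin chains Fth1 (0.64) and Ftl1 (0.49), biliverdin reductase Blvrb (0.63) and the heme transporter Slc48a1 (0.50). The NADPH list did not move together. Taldo1 (0.54) and Tkt (0.20) of the pentose phosphate pathway rose, while G6pdx, its first enzyme, fell by 2.03 and malic enzyme Me1 fell by 0.47, so 3 of 6 were higher and 2 lower (median -0.02). Of 13 partners and regulators of NRF2, 5 rose and 1 fell (median 0.08), a share near that of all genes, with Rbx1 (0.23), Nfe2l1 (0.22), Sqstm1 (0.21) and Fbxw11 (0.13) named, and under TMM scaling 2 rose and 3 fell with the median at -0.01. TMM scaling left the detoxification counts at 15 and 3 (median 0.73), the other enzymes at 10 and 0 (0.21) and iron and heme at 5 and 0 (0.39), and put NADPH at 1 and 2.

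By sex, 15 of 19 detoxification genes rose and 1 fell in males (mean of exposures, median 1.10), where 39.2% of all genes rose and 9.68% fell. In females 9 rose and 1 fell (median 0.21), where 19.8% rose and 18.5% fell. By the test of the difference, the male change was above the female change for 11 of 19 and below it for 1 (median 0.54), against 26.6% and 6.58% of all genes (median 0.13). Those shares depend on the scaling. As deposited, 4205 of all genes were above and 1041 below, and under TMM scaling 1987 above and 2016 below. The list's counts in this test under TMM scaling are not given here. Kupffer cell and macrophage markers moved with sex too, with 7 of 10 higher on HFD in males and 1 of 10 in females, as did stellate cell markers, with 6 of 6 higher in males and 3 of 6 in females. Their part in the list's difference was not tested. Cbr3 had 1.96 in males and 0.10 in females, Gstm3 2.58 in males and -0.05 in females, and Gstp1 -1.54 in males and -0.03 in females, which were picked after their values were seen. The differences were 1.86 for Cbr3, 2.63 for Gstm3 and -1.50 for Gstp1 (limma, adjusted p between 4.21e-09 and 5.21e-08). Of the NADPH genes, G6pdx fell by 1.02 in males and 3.03 in females. Males were above females in the mean of the 4 for Gstp1 (2.13) and Aox1 (0.58), and below for Abcc4 (-1.09) and Cbr1 (-0.60). With the mixture, none of these lists had a called gene in the mean of the 4. The nearest were Osgin1 (0.57, adjusted p = 0.138, limma) of the detoxification list and Prdx5 (0.13, adjusted p = 0.193) of the other antioxidant enzymes. Akr1b8 (0.28, adjusted p = 0.215) of the detoxification list came next.

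**Figure D4:**
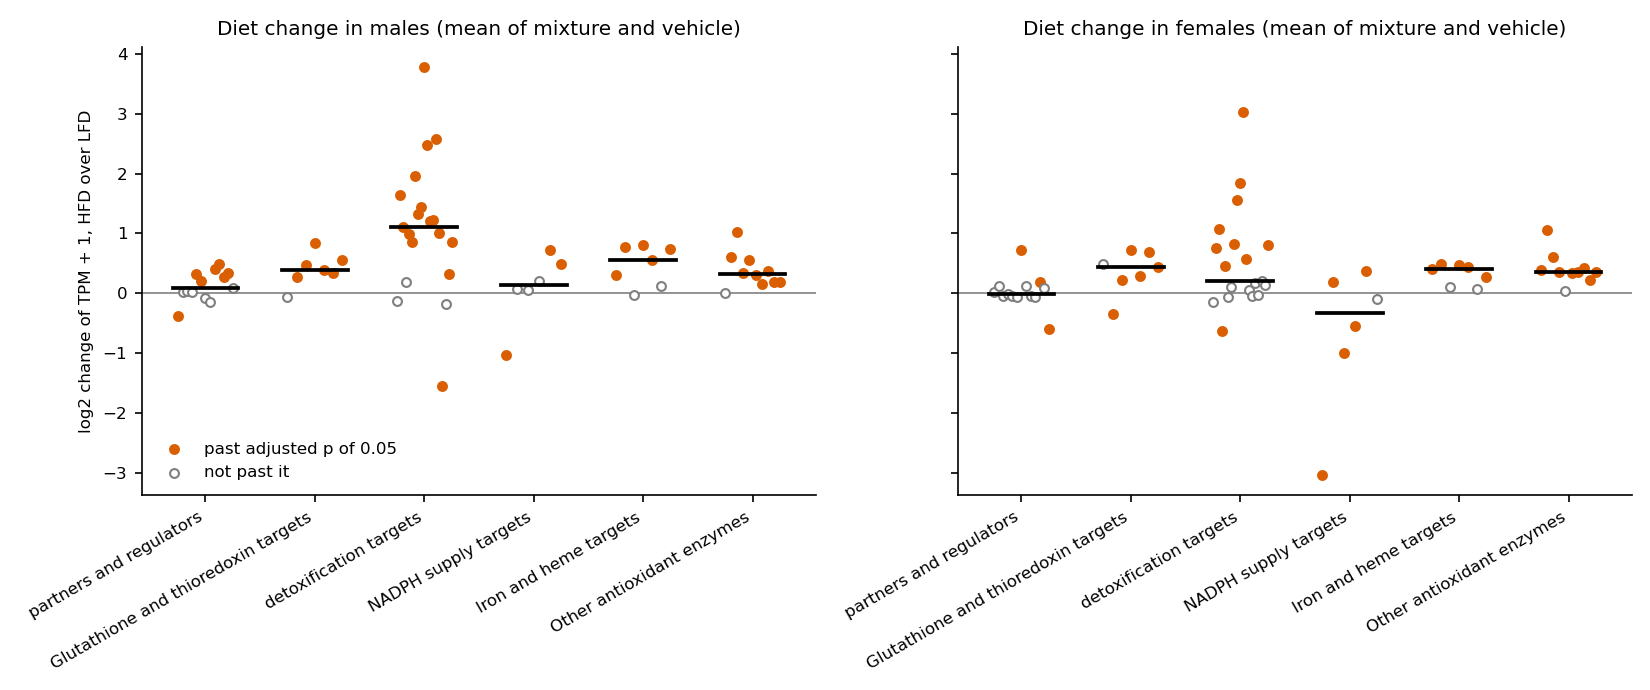
Log2 change of TPM + 1 for HFD over LFD, averaged over mixture and vehicle mice, for each tested gene of 6 lists in males (left) and females (right), filled where the adjusted p was under 0.05, with a black line at the list median. The detoxification median is 1.10 in males and 0.21 in females.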

How the data were processed

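Liver poly(A) RNA of 48 mice (8 groups of 6) was measured. RNA was extracted with an RNeasy kit and libraries were made by Azenta, per the labels' protocols. FastQC, Trimmomatic 0.36, STAR 2.5.2b and DESeq2 with GRCm38 are named without roles, per the submitters' processing notes. No source used here names the read counter, the gene lengths or the strand setting. The authors deposited TPM for each gene and library, without pooling. Every column sums to 1000000, so depth is unknown.

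The test was limma 3.58.1 (R 4.3.3; trend, empirical Bayes) on log2(TPM + 1); all 48 libraries entered 1 fit with 8 group means and 40 residual degrees of freedom. It ran on the 15820 genes that reached 1 TPM in 6 or more libraries. P-values were adjusted by Benjamini-Hochberg within each of 24 comparisons, at a threshold of 0.05. Log2 changes understate low genes. No label gives a batch or says how the mice of a group are related, so p-values reflect only how these libraries vary, which may be technical in part. TMM factors were weighted trimmed means of log ratios (30% of log ratios and 5% of abundances trimmed). Correlations used deviations from group means of log2 values, with 100000 permutations within groups. Positions are on GRCm38 from GENCODE M21, and promoter windows from RefSeq.

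The members and lists were chosen with earlier results of these data known. Named were all 8 members, of each list the 4 called genes with the smallest p in a mean comparison (or the 2 with the smallest p where none was called), and for each member the 2 genes most like it. Alternatives were TMM scaling, no filter, log2(TPM + 0.1), fitting just the groups compared, the replicate number as a block and leaving out 3 muscle-rich libraries. Chosen after seeing the data were leaving out 5 such libraries, leaving out the 2 libraries highest in macrophage transcripts, the means of the diet change by sex and the second ARE form. Code was tested on simulated data.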

Additional observations from a re-analysis of the deposited data

Results flagged for a closer look

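In 5 of the 64 combinations of member and group looked at, a library stood apart from the other 5 of its group by Dixon's criterion at 95%, and chance alone gives about 1 in 20. Hmox1 was at 50.5 TPM in mixture HFD female 6 and 55.8 TPM in vehicle LFD female 5, the 2 libraries with the highest sums of Kupffer cell and macrophage transcripts (1718 and 1441 TPM). Nqo1 was at 37.6 TPM in mixture HFD female 2 and Txnrd1 at 128 TPM in mixture HFD female 1, each the highest of its group, and Keap1 was at 27.4 TPM in mixture HFD male 4, the lowest of its group.

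The diet change differed between males and females by the test of the difference itself. For Nqo1 the male change was larger by 0.90 in mixture mice, 1.13 in vehicle mice and 1.02 in their mean. For Srxn1 the values were 0.98, 1.07 and 1.02. For Txnrd1 it was 0.30 in vehicle mice, and for Hmox1 0.49 in the mean of exposures. For Gclm the change was smaller in males, at -0.26 in the mean of exposures.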

How the results depend on the processing

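The 0 called members for the mixture stayed at 0 under every alternative run. The count of members called in the HFD to LFD comparison was 4 in vehicle males under TMM scaling (8 as deposited), and with no filter 2 in mixture females and 2 in vehicle females (4 each with the filter). TMM scaling also lost Keap1 and Gclm in mixture males. In males averaged over exposures, and in the mean of 4, it lost Keap1 and Txnrd1. Between males and females it was 1 in mixture LFD mice with no filter and 1 with only the groups compared (3 as deposited, Gclm and Hmox1 being lost), 2 in vehicle LFD mice under TMM scaling (1 as deposited) and 5 in the mean of 4 under TMM scaling (3 as deposited, 4 with the replicate block). The count that differed between the sexes in diet change, mean of exposures, was 2 with no filter and 3 under TMM scaling and without the 3 or the 5 libraries with muscle transcripts (4 as deposited). Without the filter 35205 genes were tested, so p-values were adjusted over more of them. For the other changes the cause was not tested. The direction turned in 1 called case, Keap1 on HFD in mixture males under TMM scaling (-0.019, adjusted p = 0.857, limma).

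The replicate number as a block called 2 more results, Gclc on HFD in mixture males (adjusted p = 0.0356, limma) and Hmox1 in males against females (adjusted p = 0.0352), and lost none. The replicate numbers are those of the sample titles and not the numbers in the library names. They cannot test a pairing by the latter. Of 168 pairs of same-numbered libraries in different groups, 25 had correlations of deviations over 0.1, with a median of 0.0131. Of 840 pairs with different numbers, 79 did, with a median of -0.00505. In all, 11 of 48 libraries correlated best with their own number. A pseudocount of 0.1 changed no call of a member. The labels give no depth, and 6 libraries a group limit the precision, most for Gclc and Hmox1.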
